A study of Homo sapiens with 12 samples.

Results

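Neuropilins, class 3 semaphorins and plexins form a guidance system of secreted ligands and cell surface receptors. The 10 genes described here are the neuropilins NRP1 and NRP2, the ligands SEMA3A, SEMA3C and SEMA3F, and the plexins PLXNA1, PLXNA2, PLXNA3, PLXNB2 and PLXND1. They were taken by symbol from 3 tables of 12756 genes each, and all 10 were present in each table. The members were chosen by their log2 fold changes and adjusted p-values in these same tables, so the members' values are a description and no count of them supports anything.

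The samples were cells of HCT116, an established line from a human colorectal carcinoma, harvested 48 hours after seeding and sequenced as polyA RNA. The 4 groups of 3 labelled replicates were parental cells, AGO2_KO cells, ANKRD52_KO cells and ANKRD52;CSNK1A1_KO cells, the last carrying both knockouts and called the double knockout here. AGO2 is one of the Argonaute proteins that microRNAs guide to target messages. ANKRD52 belongs to the PP6 phosphatase complex as a regulatory subunit, and CSNK1A1 encodes a casein kinase of the alpha type. By its title the study concerns phosphorylation of Argonaute in silencing by microRNAs, and each table compares one knockout with the parental cells. How the knockouts were made, and whether a group is 1 clone, is not given in the sources used here, so effects of a clone and of a knockout cannot be told apart. Nothing says that the replicates were separate cultures, so the p-values reflect the spread among these libraries only, and that spread may be technical.

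Class 3 semaphorins are secreted and bind neuropilins, which have short cytoplasmic tails and pass the signal on through plexins. SEMA3A acts mainly through NRP1, SEMA3F mainly through NRP2, and SEMA3C can use both. Plexins regulate small GTPases and the actin cytoskeleton, and the same neuropilins also bind VEGF, which ties the family to vessels and tumours as well as to axons.

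The values are the authors' own, per the file headers: a log2 fold change over parental, the mean log2 CPM (read counts scaled to library size) over the libraries, and edgeR's p-value adjusted over all genes, called here when under 0.05. Depth per library is unknown, and no value per library is used. Beside each fold change stands an approximate standard error (SE), made by dividing the size of the log2 fold change by the root of the deposited likelihood ratio. Group levels in CPM are implied from the mean and the 3 fold changes, on the assumption that the mean CPM is an average of 4 equal groups. The targeted genes had log2 fold changes in the authors' deposited tables of -1.07 for AGO2 in its own knockout, 0.03 for ANKRD52 in its own, and -0.65 for ANKRD52 and -2.42 for CSNK1A1 in the double knockout. The message level therefore gives no check of the ANKRD52_KO label.

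MicroRNAs pair with messages mainly through bases 2 to 8, the seed, so the 3' untranslated regions (UTRs) of the members were searched for the 7-base complements of 17 microRNA seeds. The microRNAs below were picked after values were seen, from those with sites in members that rose in a knockout. They are not the only ones: miR-15a-5p, with 11 matches over the members, had sites in NRP2, SEMA3A and PLXNA1. MiR-30a-5p had sites in NRP1, SEMA3A and PLXNA1. Both also had sites in members that rose in no knockout. The printed sequences are those of RefSeq (GRCh38.p14), with the seed in capitals.
miR-200a-3p: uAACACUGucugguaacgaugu
miR-200b-3p: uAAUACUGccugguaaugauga
miR-101-3p: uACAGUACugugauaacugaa
miR-23a-3p: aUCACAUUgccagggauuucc

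Sites for the miR-200 family are shown first because this family silences ZEB1, which lies near NRP1 in the genome. The UTR strand is printed as DNA from GENCODE release 29, with the 7 matching bases in capitals and their GRCh38 position. All of them lie in the exonic 3' UTR of the principal transcript.
NRP1 with miR-200a, chr10:33177878-33177884, minus strand: atttgtaaaggCAGTGTTacaaaatg
NRP2 with miR-200a, chr2:205796979-205796985, plus strand: tggtaatgtcaCAGTGTTttgtatgc
NRP2 with miR-200a, chr2:205797301-205797307, plus strand: cccatgatgcgCAGTGTTcagaaagc
NRP2 with miR-200b, chr2:205797753-205797759, plus strand: aaccccactgcCAGTATTgatctcct
SEMA3A with miR-200a, chr7:83959301-83959307, minus strand: gtactaacattCAGTGTTgtgtttca
SEMA3A with miR-200a, chr7:83956486-83956492, minus strand: atagcactagaCAGTGTTcccacaac

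A match to miR-101 was found in 5 of the 10 members, and the 4 of them that rose in any knockout are printed next. For the miR-200 family the members that rose were not the only ones with a match: PLXNA3 and PLXND1 held 1 each for miR-200a, and PLXNA2 and SEMA3F 1 each for miR-200b, which makes 5 members with a miR-200a match and 3 with a miR-200b match. A seed match is a description of letters and was not tested as a functional site.
NRP1 with miR-101, chr10:33179544-33179550, minus strand: ttctttttaaaGTACTGTagcctcag
NRP2 with miR-101, chr2:205796336-205796342, plus strand: gaagtccgcaaGTACTGTggacaaga
SEMA3A with miR-101, chr7:83959461-83959467, minus strand: tgcttttggaaGTACTGTatatcctc
PLXNA1 with miR-101, chr3:127035284-127035290, plus strand: gccccagtgggGTACTGTacagttaa

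SEMA3C held no site for miR-200a, miR-200b or miR-101. The 2 semaphorins that rose in the ANKRD52 knockout, SEMA3A and SEMA3C, both held sites for miR-23a.
SEMA3A with miR-23a, chr7:83956193-83956199, minus strand: gatagcattaaAATGTGAagtctgca
SEMA3A with miR-23a, chr7:83955856-83955862, minus strand: acaattcaggtAATGTGAaggctcaa
SEMA3C with miR-23a, chr7:80743594-80743600, minus strand: ttagatggaaaAATGTGAaaaaaatt

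Such matches are common in long UTRs. Over 11803 measured genes with a UTR of at least 50 bases, 19.9% held a miR-200a match, 18.3% a miR-200b match, 11.1% a miR-101 match and 19.7% a miR-23a match. The UTR of SEMA3A was 5594 bases long, longer than 94.8% of those UTRs, and among the 500 UTRs nearest to it in length 55.4% held a miR-200a match and 50.6% a miR-23a match. The UTRs of NRP1 (2584 bases), NRP2 (3075 bases) and SEMA3C (2356 bases) also exceeded the median of 1180 bases. For miR-101 the share among UTRs of like length was 15.8% for NRP1, 20.0% for NRP2, 30.2% for SEMA3A and 21.8% for PLXNA1. Over all 17 seeds the members held 68 matches, from 14 in SEMA3A to 0 in the 725 bases of PLXNB2. Let-7 matches were found in SEMA3F, PLXNA2 and PLXND1, and none of these rose in any knockout.

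The neuropilins were called in different knockouts. NRP1 rose in the AGO2 knockout and NRP2 in the double knockout, and neither was called in the ANKRD52 knockout. NRP1, the receptor for SEMA3A and for VEGF, had an implied level of 4.77 CPM in parental cells, 62.0 in the AGO2 knockout, 6.43 in the ANKRD52_KO cells and 4.12 in the double knockout. The AGO2 knockout alone stood high, and the other 3 groups lay within a narrow span of one another. In the authors' deposited table the rise was 13.0-fold (log2 3.70, SE 0.96, adjusted p = 0.00671, the fifth highest log2 fold change of the table). The ANKRD52 knockout had a log2 fold change of 0.43 in the authors' deposited table, with an approximate 95% interval of -1.26 to 2.12, and the double knockout one of -0.21, from -1.90 to 1.48.

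NRP2, the receptor that SEMA3F prefers, had implied levels of 4.12 CPM in parental cells, 5.70 in the AGO2 knockout, 3.18 in the ANKRD52_KO cells and 223 in the double knockout. The double knockout alone stood high. The parental levels rest on the assumption about the mean: taken as a geometric mean over groups it gives parental levels of 3.29 for NRP1 and 4.42 for NRP2 in log2 CPM, in place of 2.25 and 2.04, so the order of the neuropilins in parental cells is not settled. The fold change was 54.0 in the authors' deposited table (log2 5.76, SE 0.45, adjusted p = 1.37e-34). Log2 fold changes of NRP2 in the authors' deposited tables were 0.47 (adjusted p = 0.503) for the AGO2 knockout and -0.37 (adjusted p = 0.580) for the ANKRD52 knockout. Per kilobase of exon the implied parental levels were 0.441 CPM for NRP1 and 0.401 for NRP2, with the same limit.

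**Figure D1:**
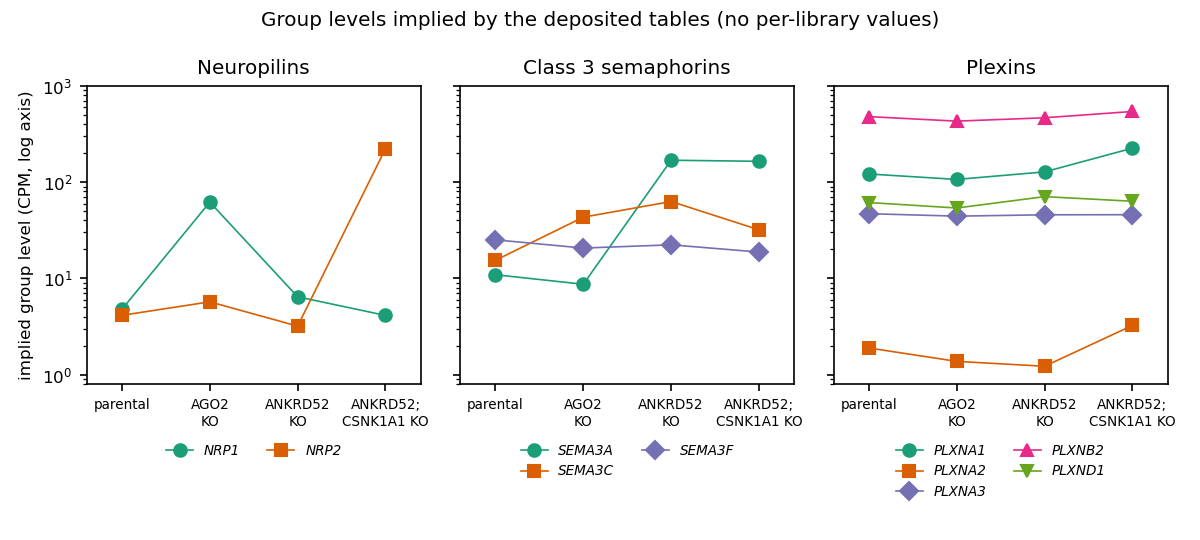
Implied level in CPM (log axis) of each member in the 4 groups, for neuropilins, class 3 semaphorins and plexins; each point is 1 group level implied by the deposited tables, without an error, and lines only join points of 1 gene. NRP1 peaks at 62.0 CPM in the AGO2 knockout, NRP2 at 223 CPM in the double knockout, and SEMA3A is high in both groups labelled as ANKRD52 knockouts.

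Among the ligands, SEMA3A and SEMA3C rose in the ANKRD52 knockout, SEMA3A alone also rose in the double knockout, and SEMA3F fell in the double knockout. SEMA3A, the prototype repellent of the class, had implied levels of 10.9 CPM in parental cells, 8.68 in the AGO2 knockout, 169 in the ANKRD52_KO cells and 165 in the double knockout. Both groups labelled as ANKRD52 knockouts stood high and at nearly the same level, and the AGO2 knockout stayed near the parental cells. The rise in the ANKRD52 knockout was 15.5-fold in the authors' deposited table (SE 0.66 on the log2 scale, adjusted p = 3.73e-07). For the double knockout the authors' deposited table gave 15.1-fold (log2 3.92, SE 0.65, adjusted p = 3.00e-08). The AGO2 knockout had a log2 fold change of -0.33 in the authors' deposited table (adjusted p = 0.796), with an approximate 95% interval of -1.47 to 0.82.

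SEMA3C, which can signal through both neuropilins and with PLXND1, was implied at 15.4 CPM in parental cells, 43.2 in the AGO2 knockout, 62.9 in the ANKRD52_KO cells and 32.0 in the double knockout. All 3 knockouts lay above the parental level, but only the ANKRD52 knockout was called. That rise was 4.08-fold in the authors' deposited table (log2 2.03, SE 0.56, adjusted p = 0.00508). The AGO2 knockout had a log2 fold change of 1.49 (SE 0.55, adjusted p = 0.0790) and the double knockout one of 1.05 (SE 0.54, adjusted p = 0.104) in the authors' deposited tables.

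SEMA3F, a ligand known to restrain tumour vessels, ran from 18.8 CPM in the double knockout to 25.1 CPM in parental cells, with the other knockouts between them. It fell in the double knockout, with a log2 fold change of -0.42 in the authors' deposited table (SE 0.17, adjusted p = 0.0294), and was not called at 0.01. The AGO2 knockout (-0.28, adjusted p = 0.317) and the ANKRD52 knockout (-0.17, adjusted p = 0.553) were not called in the authors' deposited tables.

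Among the plexins PLXNA1 rose in the double knockout, and no other plexin of the 5 was called in any of the 3 tables. PLXNA1, a signalling partner of NRP1 in the response to SEMA3A, was implied at 122 CPM in parental cells, 107 in the AGO2 knockout, 128 in the ANKRD52_KO cells and 226 in the double knockout. Only the double knockout stood apart, at 1.85-fold in the authors' deposited table (log2 0.89, SE 0.21, adjusted p = 0.000128).

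PLXNA2 was the scarcest member, at 1.89 CPM in parental cells, 1.37 in the AGO2 knockout, 1.22 in the ANKRD52_KO cells and 3.24 in the double knockout. Its log2 fold change in the double knockout was 0.78 in the authors' deposited table (SE 0.39, adjusted p = 0.0923). PLXNA3, a partner of NRP2 in the response to SEMA3F, ran from 44.3 to 47.0 CPM over the 4 groups, and its 3 approximate intervals together span -0.31 to 0.20 on the log2 scale. PLXNB2, a receptor of class 4 semaphorins, was the highest member, from 431 CPM in the AGO2 knockout to 543 in the double knockout. Its log2 fold change there was 0.18 in the authors' deposited table (adjusted p = 0.146). PLXND1, which SEMA3E can bind without a neuropilin, ran from 53.9 CPM in the AGO2 knockout to 70.7 in the ANKRD52 knockout, and none of its 3 values was called.

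**Figure D2:**
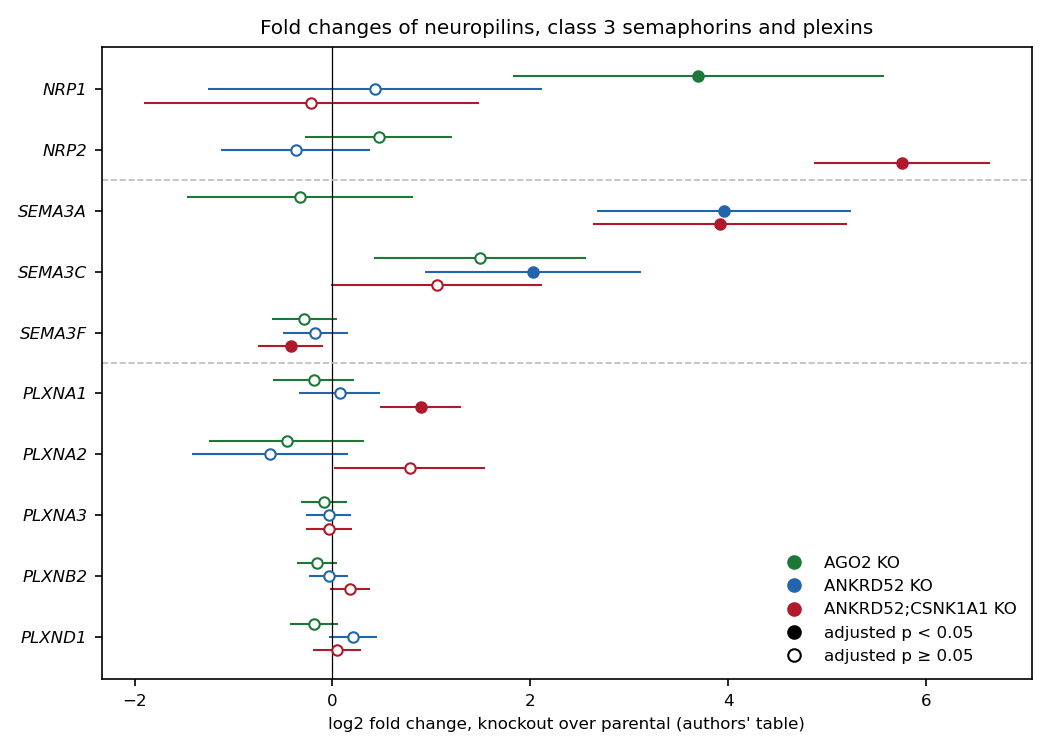
Log2 fold change over parental cells in the authors' deposited tables for the 10 members, with bars for approximate 95% intervals; filled points have an adjusted p under 0.05. The called values are NRP1 in the AGO2 knockout, SEMA3A and SEMA3C in the ANKRD52 knockout, and NRP2, SEMA3A, PLXNA1 and SEMA3F in the double knockout.

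Of the 10 members 1 rose and 0 fell in the AGO2 knockout, where 3.38% of all genes rose, 2.72% fell and 6.1% were called in either direction. In the ANKRD52 knockout 2 rose and 0 fell, against 7.62% of all genes that rose, 6.04% that fell and 13.7% called. The double knockout had 3 that rose and 1 that fell, where 22.9% of all genes rose, 20.1% fell and 43% were called. Since the members were chosen with these values known, nothing is read from the counts. The members' median log2 fold changes were -0.17, 0.02 and 0.48 in the 3 knockouts in that order, against 0.00 for all genes in the first and second and 0.01 in the third. By sign alone, called or not, 7 of 10 members lay below 0 in the AGO2 knockout and 3 of 10 in the double knockout. Nothing is read from these counts either.

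Per kilobase of exon (GENCODE 29 union of exons, not the annotation the authors counted on), PLXNB2 led in parental cells at 75.1 CPM per kilobase. PLXNA1 followed at 13.4, then PLXND1 at 8.65, SEMA3F at 6.12, PLXNA3 at 4.32, SEMA3C at 2.92, SEMA3A at 1.31, NRP1, NRP2 and PLXNA2 at 0.165. In the double knockout NRP2 reached 21.7 and SEMA3A 19.8 CPM per kilobase, beside 24.9 for PLXNA1. In the ANKRD52 knockout SEMA3A stood at 20.4 CPM per kilobase beside 14.1 for PLXNA1. In the AGO2 knockout NRP1 stood at 5.73 CPM per kilobase beside 11.8 for PLXNA1. The values of NRP1, NRP2 and SEMA3A rest on the same assumption about the mean and would be higher with a geometric one. Errors between genes were not estimated, so neighbours in this order are not shown to differ.

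The errors behind the 4 members with the largest changes were wide. The median SE over the 3 comparisons was 0.86 for NRP1 and 0.65 for SEMA3A, larger than for all 1000 genes nearest to each in mean level, whose medians were 0.14 and 0.104. For SEMA3C it was 0.55 and larger than for 99.7% of like genes, and for NRP2 it was 0.38 and larger than for 99.0%. Like genes were matched on the mean over all groups, which for these members is raised by their high groups. That mean was 19.3 CPM for NRP1 and 58.9 for NRP2, beside implied parental levels of 4.77 and 4.12. The effect of this matching on the excess was not tested. PLXNB2, PLXNA3 and PLXND1 had errors of 0.101, 0.117 and 0.124, near the middle of their like genes, whereas that of PLXNA1 was 0.208 and larger than for 94.6%. Which libraries gave these wide errors cannot be seen from the tables. Read against the F distribution (1 and 8 degrees of freedom) in place of chi-square, NRP1 in the AGO2 knockout (adjusted p = 0.277) and SEMA3A and SEMA3C in the ANKRD52 knockout (0.0679 and 0.125) lost their calls. That reference left 0 genes of all 12756 called in the AGO2 knockout and 3 in the ANKRD52 knockout. These losses are therefore not particular to the members. The unadjusted p-values of NRP1, SEMA3A and SEMA3C by this F reference were 0.00474, 0.00031 and 0.00653. Under the same reference the double knockout kept NRP2 (adjusted p = 0.000256), SEMA3A (0.00473) and PLXNA1 (0.0172) and lost SEMA3F (0.0910).

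**Figure D3:**
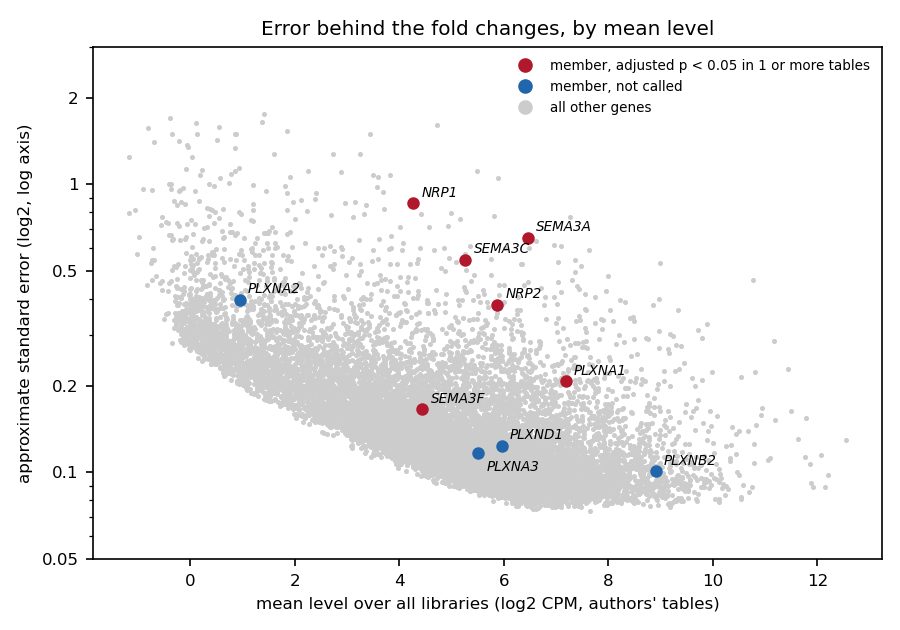
Approximate standard error of the log2 fold change (median over 3 comparisons, log axis) against the mean log2 CPM, with each grey point 1 gene and members named. NRP1, SEMA3A, SEMA3C and NRP2 lie at the upper edge of the genes of their level, while PLXNA3, PLXND1 and PLXNB2 lie in the bulk.

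The knockouts were then compared with each other by the difference of their fold changes, in which the parental level drops out. The approximate test was run over 11876 genes whose mean log2 CPM was 1 or more, which leaves 9 of the 10 members and sets PLXNA2 aside. With all genes kept, PLXNA2 was called higher in the double knockout, 2.66-fold over the ANKRD52 knockout (adjusted p = 0.00195) and 2.37-fold over the AGO2 knockout (adjusted p = 0.00573). Its values come from the same tables as the choice of the members and are not independent of it. Between the double and the ANKRD52 knockout 2 members were called, NRP2 and PLXNA1, both higher in the double, where 18.1% of genes were higher, 16.3% lower and 34.5% called. NRP2 was 69.9-fold higher (log2 6.13, SE 0.42, adjusted p = 9.995e-46) in the double knockout, and PLXNA1 1.76-fold (log2 0.82, SE 0.21, adjusted p = 0.000576). SEMA3A differed by -0.04, with an approximate 95% interval of -1.32 to 1.25, which is wide enough to hold a 2-fold difference either way. SEMA3C differed by -0.98 (interval -2.05 to 0.10, adjusted p = 0.160).

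Between the ANKRD52 and the AGO2 knockout 3 members were called, 2 higher and 1 lower in the ANKRD52 knockout, where 5.52% of genes were higher, 3.91% lower and 9.43% called. SEMA3A was 19.5-fold higher in the ANKRD52 knockout (log2 4.28, SE 0.62, adjusted p = 5.59e-09). NRP1 was 9.65-fold higher in the AGO2 knockout (log2 difference -3.27, SE 0.91, adjusted p = 0.00811). PLXND1, called in neither table alone, was higher in the ANKRD52 knockout by 0.39 (SE 0.12, adjusted p = 0.0236). None of the 3 stayed called with a t distribution of 8 degrees of freedom, which called 0 genes of the table in this comparison (1955 at an unadjusted p under 0.05). SEMA3C, implied above the parental level in both, differed by 0.54 with an interval of -0.54 to 1.62.

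Between the double and the AGO2 knockout 5 members were called, 4 higher and 1 lower in the double knockout, where 21.6% of genes were higher, 21% lower and 42.6% called. SEMA3A (log2 difference 4.25, adjusted p = 1.62e-10), NRP2 (5.29, 2.57e-34), PLXNA1 (1.08, 2.29e-06) and PLXNB2 (0.33, 0.00373) were higher in the double knockout. PLXNB2 lost this call when both squared errors were added (adjusted p = 0.0754). NRP1 was higher in the AGO2 knockout by 15.1-fold (log2 difference -3.91, SE 0.91, adjusted p = 0.000109).

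**Figure D4:**
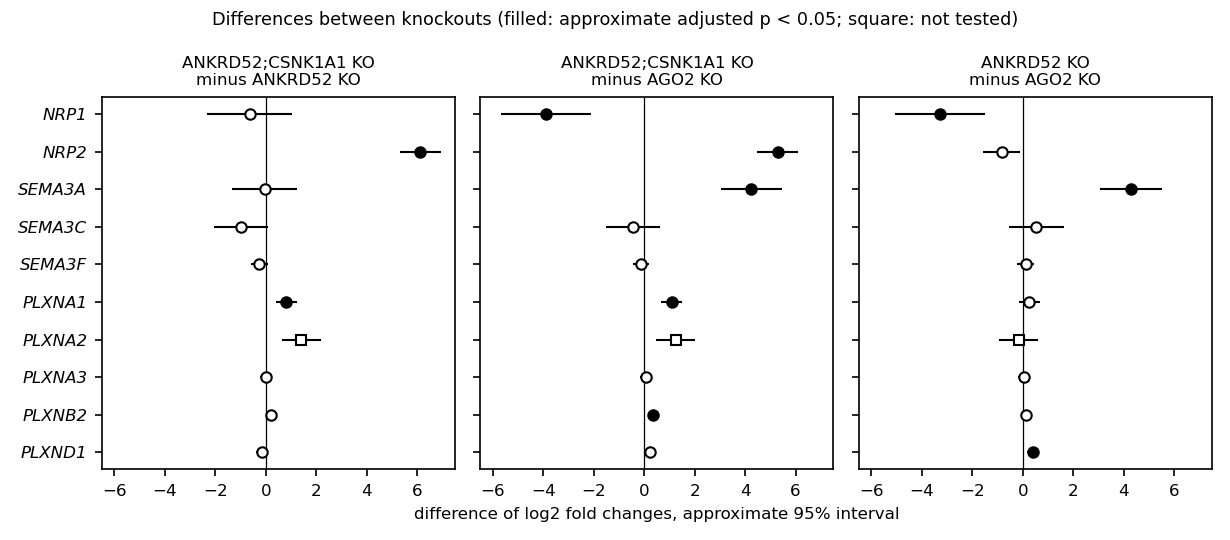
Differences of log2 fold changes between knockouts with approximate 95% intervals for each member; filled points have an approximate adjusted p under 0.05, and the square is PLXNA2, which was below the expression minimum. NRP1 and NRP2 lie on opposite sides of 0 in the comparison of the double with the AGO2 knockout, at -3.91 and 5.29.

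The 4 other class 3 semaphorins were all measured. SEMA3B, which like SEMA3F lies on the short arm of chromosome 3, rose in both groups labelled as ANKRD52 knockouts, by 1.13 (adjusted p = 0.0396) in the single and 3.05 (2.56e-11) in the double knockout in the authors' deposited tables. SEMA3B was implied at 6.43 CPM in parental cells, 7.90 in the AGO2 knockout, 14.1 in the ANKRD52_KO cells and 53.1 in the double. SEMA3E, the ligand of PLXND1, fell in the double knockout with a log2 fold change of -1.65 in the authors' deposited table (adjusted p = 0.0028), from an implied 3.02 to 0.964 CPM. SEMA3D and SEMA3G were called in no table.

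Of the other plexins 2 of 4 were measured, and both rose in the double knockout, where 22.9% of all genes rose. PLXNB1, the receptor of SEMA4D, rose by 1.25 (adjusted p = 3.36e-23) and PLXNB3 by 0.98 (0.000837) in the authors' deposited table. Of 9 measured semaphorins of classes 4 to 7, 0 were called in the AGO2 knockout by edgeR, 1 fell in the ANKRD52 knockout, and 1 rose and 1 fell in the double. SEMA4G stood at -0.40 (adjusted p = 0.0228) in the ANKRD52_KO cells and -0.30 (0.0463) in the double in the authors' deposited tables.

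Of 26 measured genes of plexin signalling 1 rose and 1 fell in the AGO2 knockout, 3 rose in the ANKRD52 knockout, and 7 rose and 3 fell in the double. The shares of all genes called in the 3 knockouts were 6.1%, 13.7% and 43%. MICAL1, an enzyme that oxidises actin downstream of plexins, rose by 0.57 (adjusted p = 0.00013) in the single ANKRD52 knockout and 1.05 (1.58e-16) in the double knockout in the authors' deposited tables. DPYSL3 (1.10, adjusted p = 9.78e-15), of the collapsin response mediators, and the cofilin kinase LIMK2 (1.13, 8.14e-10) rose in the double knockout in the authors' deposited table. FES, a kinase linked to plexin A1, fell in the AGO2 knockout, with -0.67 in the authors' deposited table (adjusted p = 0.00185).

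Of 4 measured VEGF ligands and receptors VEGFA fell in the ANKRD52 knockout (-0.52, adjusted p = 0.000602) and VEGFB in the double (-0.70, 3.59e-07) in the authors' deposited tables. KDR, the main signalling receptor for VEGFA, rose in the double knockout by 1.10 (adjusted p = 0.0152) in the authors' deposited table, from an implied 1.16 to 2.49 CPM. Among 5 measured co-receptors the adhesion molecule L1CAM, a partner of NRP1, rose by 2.08 (adjusted p = 4.69e-14), ERBB2 rose by 0.38 (0.000956) and MET stood at -0.90 (0.00331) in the double knockout in the authors' deposited table. Of the 4 proteases that can process semaphorins PCSK5 rose by 2.13 (adjusted p = 4.35e-17) and PCSK6 stood at -0.80 (7.83e-06) in the double knockout in the authors' deposited table.

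Over these 54 related genes 3.70% were called in the AGO2 knockout, 11.1% in the ANKRD52_KO cells and 44.4% in the double, close to the shares of 6.1%, 13.7% and 43% for all genes. Their median log2 fold changes were -0.0034, 0.04 and 0.19.

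**Figure D5:**
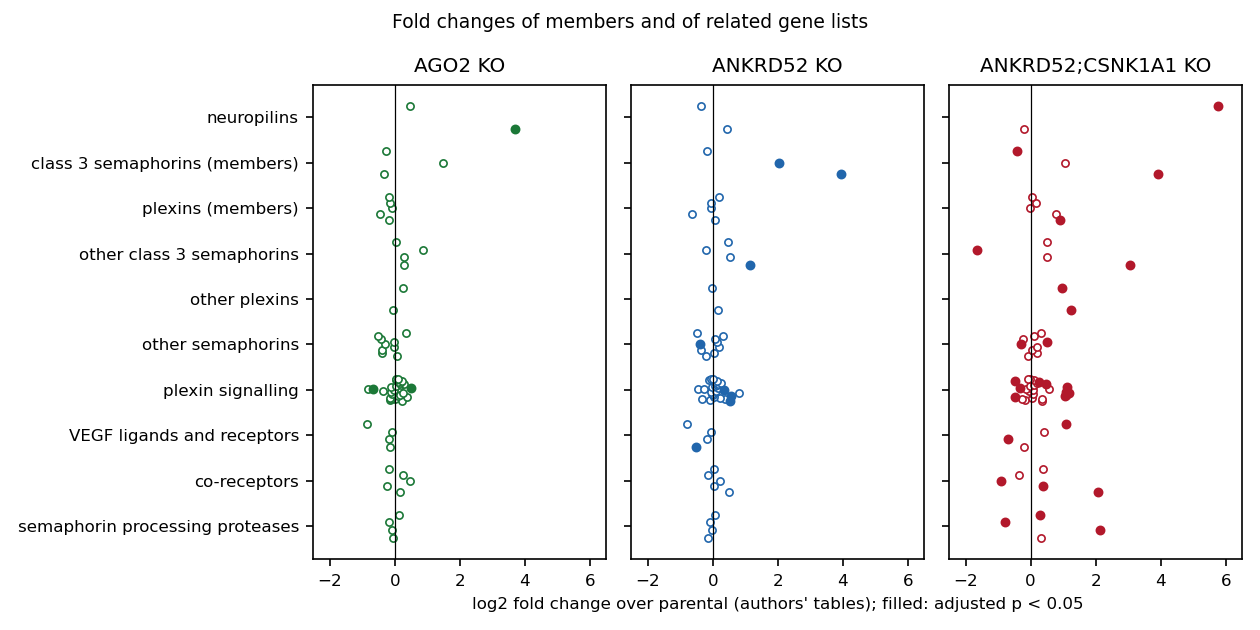
Log2 fold changes over parental cells for the members and for 7 lists of related genes in the 3 knockouts; each point is 1 gene, filled where the adjusted p is under 0.05, and the vertical offset within a list only separates points. Most related genes lie near 0 in the AGO2 and ANKRD52 knockouts, where 2 and 6 of 54 were called, and 24 of 54 were called in the double knockout.

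Neuropilins and semaphorins also mark endothelial cells, fibroblasts and neurons, so markers of these were read beside them. Of the colon epithelial markers 7 of 9 were measured, with KRT8 at 1529.6 and KRT18 at 619 CPM in parental cells, and CDH17 and LGALS4 not among the genes tested. The sum of the 7 was 2641, 2743, 2610 and 7099 CPM in the parental, AGO2, ANKRD52 and double groups. In the double knockout, where 22.9% of all genes rose, 5 of them rose. Among these were CDX2 by 2.67 and VIL1 by 5.91 in the authors' deposited table, VIL1 from an implied 0.0485 CPM. KRT8 and KRT18 made up most of each sum. In the ANKRD52 knockout, where SEMA3A and SEMA3C rose, CDH1 fell (-1.33, adjusted p = 0.0195) and EPCAM fell (-0.81, adjusted p = 0.000545) in the authors' deposited table. The other 5 were not called there: KRT8 (0.12), KRT18 (0.12) and KRT20 (0.04) lay above 0, and CDX2 (-0.27) and VIL1 (-0.51) below. For endothelial cells 2 of 7 markers were measured, VWF and KDR, with summed implied levels of 1.69, 1.17, 1.43 and 5.02 CPM in the parental, AGO2, ANKRD52 and double groups. Among fibroblast markers only COL1A1 of 6 was measured, from 11.9 to 14.1 CPM over the groups. For neurons 4 of 7 were measured, summing to 137, 116, 160 and 245 CPM, and of these MAP2 rose in the double knockout and SNAP25 in the ANKRD52 knockout. TUBB3, which made up most of the parental sum, went from 115 to 104 CPM in the double knockout and was not called. Leukocyte markers (2 of 4 measured) summed to 4.26, 6.57, 2.65 and 9.70 CPM, and of these LYZ rose and CD68 fell in the double knockout, by 6.77 and -1.96 in the authors' deposited table. In the double knockout, where NRP2 was high, the summed levels of all 5 lists were the highest of the 4 groups, but the neuronal sum rested on MAP2, the leukocyte sum on LYZ, and the fibroblast sum on COL1A1 alone, which was not called (0.24, adjusted p = 0.281, in the authors' deposited table). The part of these markers in the results was not tested. Parental and knockout cells are all of the HCT116 line. In RNA from whole cultures, a change in how many cells carry a message and a change in RNA per cell cannot be told apart.

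Genome position was examined because SEMA3C (chr7:80742538-80922359) and SEMA3A (chr7:83955777-84492724, both GRCh38, minus strand) lie close together on chromosome 7 with SEMA3E between them and SEMA3D beyond. Over the 19 measured non-member genes nearest to SEMA3A the median log2 fold change was 0.26 in the AGO2 knockout, 0.04 in the ANKRD52_KO cells and -0.18 in the double. For SEMA3C the 19 nearest gave 0.21, 0.11 and -0.02. PION, a neighbour of both, stood at 4.36 in the ANKRD52_KO cells and 0.80 in the double in the authors' deposited tables. In the ANKRD52 knockout, where 7.62% of all genes rose and 6.04% fell, 4 neighbours of SEMA3A and 3 of SEMA3C rose and 0 fell. In the double, where 22.9% of all genes rose and 20.1% fell, 0 and 1 in that order rose, and 4 of each fell. In the AGO2 knockout, where 3.38% rose and 2.72% fell, 2 of each rose and 0 fell. The 2 sets of neighbours overlap, and these counts were not tested. ABCB1, another neighbour of both, stood at 1.48 in the AGO2 knockout in the authors' deposited table, beside 1.49 for SEMA3C. Since the members were chosen for their changes, nothing is read from their distance to these medians.

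NRP1 (chr10:33177492-33336262, GRCh38, minus strand) has ZEB1, the repressor of epithelial genes, among its 20 nearest measured genes. ZEB1 rose in the AGO2 knockout by 1.58 (adjusted p = 0.0465) and in the ANKRD52 knockout by 2.78 (3.43e-05) in the authors' deposited tables. In the double knockout ZEB1 was not called (0.49, adjusted p = 0.463), whereas NRP1 was called in the AGO2 knockout only. ITGB1, a closer neighbour of NRP1, also rose in the AGO2 knockout (0.50, adjusted p = 0.0237). The 20 neighbours of NRP1 had medians of 0.09, 0.06 and 0.08 in the 3 knockouts. Those of NRP2 (chr2:205681990-205798133, plus strand) had medians of -0.01, 0.05 and 0.01. In the double knockout, where 22.9% of all genes rose and 20.1% fell, 6 of the 20 neighbours of NRP2 rose and 1 fell. Of the 20 neighbours of NRP1, 4 rose and 6 fell there. The highest neighbour was at 1.58 for NRP1 in the AGO2 knockout and at 1.69 for NRP2 in the double.

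Genes nearest in pattern to NRP1 and SEMA3A were found by the Euclidean distance over the 3 log2 fold changes. Only genes whose mean log2 CPM was 1 or more were searched. The distances take no account of the errors of the fold changes, so how close the likeness is was not tested. Nearest to NRP1 was CPA4, a carboxypeptidase (distance 0.991, with 3.27, 0.06 and -1.03 in the AGO2, ANKRD52 and double knockouts in the authors' deposited tables). ABCB1, LETM2, HIST1H1C and AGPAT9 followed at distances of 2.25 to 2.62. ABCB1, a drug efflux pump, is also one of the chromosome 7 neighbours of both semaphorins. Nearest to SEMA3A were LRP1B (1.24), TNFSF4 (1.54), SERPINA5 (1.71), SERPINF1 (1.81) and FAM189A1 (2.01). LRP1B stood at 0.36, 2.93 and 3.79 in the AGO2, ANKRD52 and double knockouts in the authors' deposited tables. These genes were picked for the likeness, which rests on 3 comparisons with shared parental libraries.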

How the data were processed

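PolyA RNA-seq of 12 HCT116 libraries was analysed from 3 tables deposited by the authors, one per knockout against parental cells. Per the file headers the authors' tables are edgeR output. They hold log2 fold changes and mean log2 CPM, a likelihood ratio score, and p-values with adjusted values, all computed by the authors. The submitters' processing notes list hg19, edgeR 3.8.6, featureCounts 1.4.6 and TopHat2 2.0.12, with no step assigned, and per the labels' protocols libraries were stranded. A check of all 12756 genes in each table found each deposited p-value equal to a chi-square tail (1 degree of freedom) of its ratio, and each adjusted value equal to its Benjamini-Hochberg value (tolerance 1e-06). The design provided for counts per library, and its form for fold change tables was used.

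The members and gene lists were chosen with earlier results of these data known. Named were the 10 members, up to 4 genes per list with the smallest deposited p, the targeted genes and all listed markers. The 5 genes nearest in pattern to NRP1 and to SEMA3A, and the genome neighbours ZEB1, ITGB1 and PION, were also named. ZEB1, ITGB1, PION and the microRNA sites printed were chosen after values were seen. Differences between knockouts took as variance the average of the 2 squared errors, a two-sided normal test, and adjustment by Benjamini-Hochberg across all genes whose mean log2 CPM was 1 or more. For the double against the ANKRD52 knockout, simulated data (11877 genes) gave back 63 of 100 planted differences of 0.5 and 94 of 100 of 1. The simulated noise was normal and had the same errors that the test was given, so it cannot check those errors. Differences were planted in random genes, so the recovery does not apply to NRP1, NRP2, SEMA3A and SEMA3C, whose errors were wider.

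Genes were matched to GENCODE 29 (GRCh38) by symbol (11838), RefSeq synonym (605) or not at all (313), and positions are those of GRCh38, not of the authors' build. The UTR is that of the principal transcript with the longest 3' UTR. Of 18 microRNAs searched for, 17 were matched, and miR-320a-3p was not. Work used matplotlib 3.10.9, pandas 2.3.3, scipy 1.17.1 and numpy 2.4.6 under Python 3.11.15. Alternatives were other thresholds, reference distributions, expression minimums, centring, error sums and site definitions.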

Additional observations from a re-analysis of the deposited data

How the results depend on the processing

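No paired analysis was possible because the deposited tables hold no value per library, and for the same reason no replicate could be left out, no other normalization tried and no DESeq2 fit made. Reading the ratios against the F distribution (1 and 8 degrees of freedom) left 0 members called in the AGO2 knockout and 0 in the ANKRD52 knockout (2 and 2 at an unadjusted p under 0.05 by that reference, and 1 and 2 by edgeR's adjusted values), and 0 and 3 genes of the whole tables, against 3784 in the double knockout. At an adjusted p under 0.01 the related lists held 1 called gene in the AGO2 knockout and 3 in the ANKRD52 knockout, in place of 2 and 6. Between the ANKRD52 and AGO2 knockouts the sum of both squared errors left 1 member, SEMA3A, and a t distribution left 0 (3 at an unadjusted p under 0.05). A stricter seed match with an A after the 7 bases left 20 sites in the members, and a match to bases 2 to 7 gave 186, in place of 68. The implied parental levels of NRP1, NRP2 and SEMA3A, in log2 CPM, were 2.25, 2.04 and 3.45 with an arithmetic mean over groups and 3.29, 4.42 and 4.58 with a geometric one, so levels of these genes rest on the arithmetic reading while fold changes do not. Over all genes, an adjusted p under 0.01 left 274 of 778 calls in the AGO2 knockout and 874 of 1742 in the ANKRD52 knockout, and the sum of squared errors left 1984 of 4092 (double against ANKRD52), 2645 of 5065 (double against AGO2) and 94 of 1120 (ANKRD52 against AGO2). The t distribution left 2466 of 4092 genes for the double against the ANKRD52 knockout, and an adjusted p under 0.01 left 525 of 1120 for ANKRD52 against AGO2. The counts of members, of called list genes and of sites stayed within 1.5 times in the other 24 alternatives.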
